A study of Mus musculus with 12 samples.

Results

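The variable (V) and joining (J) gene segments of the T cell receptor were followed in bone marrow monocytes and macrophages of mice that carried a human B cell leukemia line and of mice that did not. A member was any transcript cluster, the array's unit for 1 transcribed locus, whose single platform symbol named a V or J segment of the alpha, beta, delta or gamma chain. This gave 130 segments in 130 clusters, of 65956 clusters in all. They were 85 V alpha segments (Trav), 18 J alpha (Traj), 21 V beta (Trbv), 5 V delta (Trdv) and 1 J gamma (Trgj3). A further 26 clusters that joined a receptor segment with other symbols were left out, and no J beta, J delta or V gamma segment had a cluster of its own. All 130 symbols were found in the RefSeq gene table, where 14 were listed as pseudogenes, 8 of them J alpha segments.

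All 12 mice were Rag2-/-γc-/- animals on a BALB/c background, a strain without T, B or natural killer cells in which human cells can grow. Into the veins of 6 mice went MEC1, a line of human leukemic B cells that came from chronic lymphocytic leukemia. The other 6, of the same genotype and ages but without MEC1, were the controls. Marrow was collected at 21 days from mice aged 11 weeks, the early stage, and at 31 days from mice aged 13 weeks, the late stage, with 3 mice with and 3 without MEC1 at each time. Monocytes and macrophages were purified magnetically, and the RNA of each mouse was read on 1 array. Precision is limited by the number of arrays.

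A T cell receptor gene is assembled in developing T cells, when the Rag1 and Rag2 proteins cut the DNA beside a V and a J segment, and for the beta and delta chains a D segment, and repair enzymes join them. The joined V(D)J exon is spliced to a constant region, and the receptor chains reach the surface together with the CD3 proteins. V and J segments can also be transcribed before they are joined, and such transcripts encode no receptor. Without Rag2 the cut is not made, so the segments stay in their unjoined order in every cell of these mice, in both groups, and no rearranged receptor is expected. The array does not tell joined from unjoined transcripts.

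Most segments lay close to the background of the array. The median log2 intensity of all clusters was between 3.8 and 3.93 on the 6 control arrays and between 3.93 and 4.4 on the 6 MEC1 arrays. Of the 130 segments, 35 were above the array's own median on all 12 arrays and 37 were above it on none. A stricter mark was the brightest of 23 background features on each array: 9 segments were above it on all 12 arrays, 38 on some and 83 on none. The 9 were Traj14, Traj25, Traj46, Traj54, Traj55, Trav1, Trav11d, Trav11n and Trav13n-4. Intensities of different clusters depend on their probes and do not rank the abundance of segments. The background features moved with MEC1 as well, since 21 of 23 were higher on each day, with a median difference of 0.10 at 21 days and 0.13 at 31 days on the log2 scale. The differences ranged from -0.28 to 0.28 at 21 days and from -0.19 to 0.45 at 31 days. Background features with 6 to 10 G or C bases were higher by 0.37 to 0.45 at 31 days. Those with 17 to 24 such bases were higher by 0.06 to 0.10. Spiked-in bacterial hybridisation controls averaged 10.47 to 10.87 on control arrays and 11.8 to 13.18 on MEC1 arrays, with no overlap. Their part in the results was not tested beyond the rescaled fits given below.

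Late in the disease most J alpha segments were higher with MEC1. With MEC1 at 31 days, 12 of 18 J alpha segments rose, 11 of them at least 2-fold, and none fell. Over all segments 55 of 130 rose (42.3%) and 1 fell, where 33% of all clusters rose and 12.6% fell at the same threshold, 45.6% in either direction (limma, adjusted p under 0.05 over 65956 clusters). The median log2 change of the segments was 0.51, against 0.30 for all clusters. In RNA of a whole preparation, more cells of a type and more RNA per cell cannot be told apart. By class, 38 of 85 V alpha segments rose with a median of 0.53, and 5 of 21 V beta segments rose with a median of 0.38. None of the 5 V delta segments and not the J gamma segment passed. The J alpha median was 1.07. A rise of at least 2-fold was met by 17 segments, or 11 J alpha and 6 V alpha, beside 4.71% of all clusters. In 76 of 130 segments all 3 MEC1 mice lay above all 3 controls at 31 days, beside 45.3% of all clusters, and in 1 all 3 lay below, beside 16.2%. Leaving out 1 array lowered the number of segments that passed at 31 days from 56 to 35 without control replicate 1 or 2 of that day, and to 33 without control replicate 3 or MEC1 replicate 3. By class the rises then ranged from 8 to 12 for J alpha, from 19 to 46 for V alpha and from 0 to 7 for V beta over the 12 fits. J alpha had 8 without control replicate 2 of 31 days. V alpha had 22, 23, 19 and 20 without control replicates 1, 2 and 3 and MEC1 replicate 3 of that day. V beta had 0 without control replicate 1 or MEC1 replicate 3, 2 without control replicate 3 and 3 without control replicate 2 of 31 days or control replicate 2 or 3 of 21 days.

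**Figure D1:**
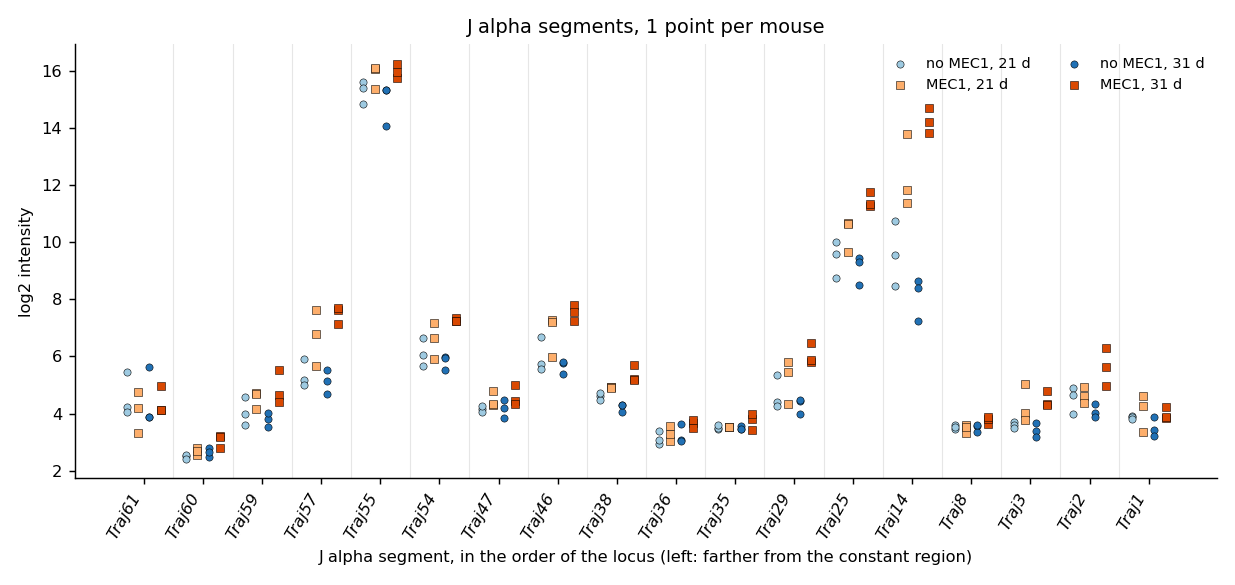
Log2 intensity (vertical axis) of the 18 J alpha segments in each of the 12 mice, 1 point per mouse, with segments in the order of the locus and the constant region to the right. Circles are mice without MEC1, squares mice with MEC1, paler at 21 days and darker at 31 days. Traj14 has the widest gap, with the 3 MEC1 mice at 31 days between 13.81 and 14.71 and the 3 controls between 7.25 and 8.63.

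Traj14, a J alpha segment that RefSeq lists as a pseudogene, had the largest change of any segment. Its log2 intensity was 8.63, 7.25 and 8.41 in the 3 control mice at 31 days and 13.81, 14.21 and 14.71 in the 3 MEC1 mice. At 21 days it was 10.76, 9.54 and 8.46 in controls and 13.80, 11.82 and 11.37 with MEC1. The MEC1 mice lay above the controls of their day in every case, and the 2 control groups overlapped each other. The change at 31 days was 6.15 (SE 0.683, adjusted p = 0.000483, limma), a 70.8-fold difference in intensity and the 5th largest rise of 65956 clusters. At 21 days it was 2.74 (SE 0.683, adjusted p = 0.0679), which did not pass, although it ranked 64th among the rises of that day. Traj14 passed at 31 days whichever of the 12 arrays was left out, with changes from 5.72 to 6.41. At 21 days it passed when MEC1 replicate 3 was left out (3.22, adjusted p = 0.0383) and in 2 fits restricted to brighter clusters (adjusted p = 0.0499 and 0.0476), in which 1.83% and 2% of the clusters rose and 2.51% and 2.95% fell.

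Traj25, Traj57 and Traj46 formed the next largest rises. J segments encode the end of the receptor's variable domain, where it meets the constant region. Traj25 was at 9.45, 8.50 and 9.31 in controls at 31 days and at 11.77, 11.26 and 11.34 with MEC1. Traj57 was at 5.52, 4.68 and 5.15 in controls and at 7.61, 7.12 and 7.68 with MEC1. Traj46 was at 5.78, 5.37 and 5.81 in controls and at 7.81, 7.25 and 7.55 with MEC1. The groups of 31 days did not overlap in any of these 3 segments. The log2 changes were 2.37 (SE 0.373, adjusted p = 0.00172) for Traj25, 2.35 (SE 0.433, adjusted p = 0.00333) for Traj57 and 1.88 (SE 0.369, adjusted p = 0.00438) for Traj46. At 21 days the same segments were higher by 0.87, 1.32 and 0.85, their groups overlapped, and none passed (adjusted p = 0.227, 0.137 and 0.231). Traj57 passed at 21 days when MEC1 replicate 3 was left out (1.84, adjusted p = 0.0216).

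**Figure D2:**
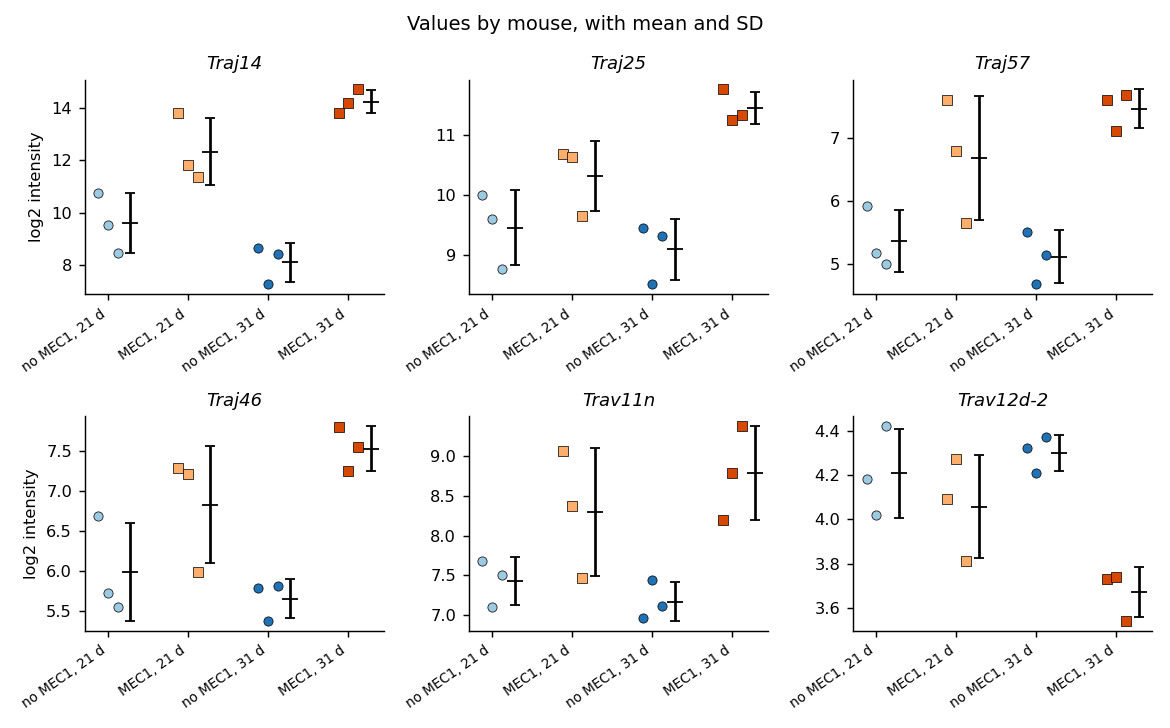
Log2 intensity (vertical axes, each panel with its own range) in every mouse for 6 segments, with the group mean and SD as a bar beside the 3 points of each group. The MEC1 mice of 31 days lie above their controls in Traj14, Traj25, Traj57, Traj46 and Trav11n and below them in Trav12d-2.

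Traj29, Traj2, Traj54 and Traj38 rose by 1.75, 1.55, 1.45 and 1.15 at 31 days, with adjusted p of 0.00687, 0.00571, 0.00621 and 0.00077 (limma). Traj38 was dim but even: its controls at 31 days read 4.30, 4.05 and 4.29 and its MEC1 mice 5.69, 5.22 and 5.17. At 21 days all 3 MEC1 mice also lay above the controls in Traj38, at 4.93, 4.92 and 4.90 against 4.60, 4.46 and 4.71, a change of 0.33 (adjusted p = 0.249). Traj54, another listed pseudogene, was at 5.99, 5.51 and 5.95 in controls and at 7.34, 7.23 and 7.23 with MEC1 at 31 days. The spread of its MEC1 mice, an SD of 0.06, was smaller than that of the controls at 0.27. Traj2 showed the reverse, with an SD of 0.24 in controls and 0.67 with MEC1.

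Traj55 differed from the others in its level. Its intensity was 15.33, 14.07 and 15.33 in controls at 31 days and 16.25, 15.75 and 15.95 with MEC1, and it lay between percentiles 98.5 and 99.4 of the 12 arrays. It rose by 1.07 at 31 days (SE 0.345, adjusted p = 0.0288), and the groups did not overlap. The call depended on single mice: the change was 0.65 (adjusted p = 0.0918) without control replicate 2 of that day, 0.94 (adjusted p = 0.071) without MEC1 replicate 1 and 1.09 (adjusted p = 0.0677) without MEC1 replicate 3. It was 0.64 (adjusted p = 0.194) with arrays centred on their median.

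The class held working segments and pseudogenes. Of the 10 J alpha segments not listed as pseudogenes 8 rose, with a median change of 1.35, and of the 8 listed as pseudogenes 4 rose, with a median of 0.45. The 6 J alpha segments that did not pass at 31 days were Traj61, Traj35, Traj8, Traj36, Traj47 and Traj1, named here because they complete the class. Their changes lay between -0.06 for Traj61 and 0.48 for Traj1. Among these 6, Traj61 had the widest spread within 1 group, with an SD of 1.01 in controls at 31 days, where replicate 1 read 5.64 and both others 3.89. Along the locus, segments that rose and segments that did not pass were interspersed: Traj14 and Traj25, next to each other among the measured segments, stood between Traj29, which rose, and Traj8, which did not pass.

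Among V alpha segments Trav11n and Trav11d stood well above background. Trav11 is the V alpha segment used by the receptor of invariant natural killer T cells, and the letters d and n mark copies in duplicated blocks of the locus. Trav11n was at 6.96, 7.44 and 7.11 in controls at 31 days and at 8.19, 8.79 and 9.37 with MEC1. Trav11d was at 7.03, 7.13 and 7.12 in controls and at 7.27, 8.01 and 8.91 with MEC1. Neither pair of groups overlapped, and the controls were tightly placed, with an SD of 0.06 for Trav11d. The changes were 1.61 (SE 0.384, adjusted p = 0.00957) for Trav11n and 0.97 (SE 0.346, adjusted p = 0.0414) for Trav11d. Trav11n passed in all 12 fits that left out 1 array and Trav11d in only 3 of them, with adjusted p up to 0.143 without MEC1 replicate 3 of 31 days. These copies are near-identical, so their signals may be shared.

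Trav13n-4 and Trav1 were the other V alpha segments above background on every array. Trav13n-4 read 8.78, 9.11 and 8.66 in controls at 31 days and 9.22, 10.07 and 9.83 with MEC1, groups that did not overlap. It rose by 0.86 (SE 0.238, adjusted p = 0.0172), but not without control replicate 3, MEC1 replicate 2 or MEC1 replicate 3 of that day (adjusted p = 0.0585, 0.0526 and 0.0543). Trav1, which the receptor of mucosal-associated invariant T cells uses and which was singled out here after its values were seen, was at 6.37, 6.54 and 6.83 in controls and at 7.24, 7.06 and 7.38 with MEC1. Its groups did not overlap, and its change of 0.65 did not pass (adjusted p = 0.0655).

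V alpha segments form families of related copies, and the counts at 31 days are given by family. In the Trav13 family 9 of 11 rose, in Trav4 6 of 7, in Trav7 6 of 11, in Trav14 3 of 6 and in Trav11 both. Of all clusters 33% rose. Of those with a mean log2 intensity under 5, where most V alpha segments lay (median 3.94), 41.7% rose. In Trav8 2 of 5 rose, in Trav10 1 of 3, in Trav9 3 of 10 with a family median of -0.04, in Trav6 2 of 7 and in Trav3 1 of 5. None rose among 5 Trav12, 4 Trav5, 2 Trav15 and 2 Trav16 segments. No test compared the families. Trav13n-1 was at 4.03, 4.29 and 4.10 in controls at 31 days and at 4.75, 5.29 and 5.81 with MEC1. Trav7d-4 was at 3.31, 3.66 and 3.38 in controls and at 4.32, 4.79 and 4.72 with MEC1. Their groups did not overlap, and the changes were 1.14 (SE 0.275, adjusted p = 0.00997) and 1.16 (SE 0.226, adjusted p = 0.00425). Members of a family have similar sequences, and 6 V alpha segments held identical values in pairs (Trav14d-2 with Trav14n-2, Trav5d-3 with Trav5n-3 and Trav7d-5 with Trav7n-5), so family counts are not counts of independent measurements.

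The only segment that fell was Trav12d-2. It read 4.32, 4.21 and 4.37 in controls at 31 days and 3.73, 3.74 and 3.54 with MEC1, with no overlap between the groups. The change was -0.63 (SE 0.148, adjusted p = 0.00907). At 21 days its change was -0.15 (adjusted p = 0.546), with 4.18, 4.02 and 4.42 in controls and 4.09, 4.27 and 3.81 with MEC1. Of the 5 Trav12 segments no other passed.

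The V beta, V delta and J gamma segments were dim. Trbv14 was at 3.98, 4.19 and 4.13 in controls at 31 days and at 4.43, 4.94 and 5.35 with MEC1, a rise of 0.81 (SE 0.231, adjusted p = 0.019). The groups did not overlap, and the call was lost without control replicate 1 or MEC1 replicate 3 of that day (adjusted p = 0.0569 and 0.0663). Trbv1 and Trbv2, the other 2 V beta clusters of highest intensity, changed by 0.38 and 0.34 without passing (adjusted p = 0.134 and 0.38). Trdv4 and Trdv1, V segments used by gamma delta T cells, were higher by 0.36 and 0.44 (adjusted p = 0.0707 and 0.0515), and Trdv2-2 was lower by a change of -0.19 (adjusted p = 0.501). Trgj3 read 3.33, 3.22 and 3.28 in controls and 3.31, 4.15 and 4.54 with MEC1, so that 1 MEC1 mouse lay among the controls. Its change of 0.72 had an adjusted p of 0.0592, and without that mouse, MEC1 replicate 1, it was 1.07 (adjusted p = 0.00747).

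The rises were read beside other clusters of like intensity, because on these arrays the change with MEC1 varied with intensity. Among all clusters with a mean log2 intensity under 5, the median change at 31 days was 0.39 and 41.7% rose, while at 5 and over the median was -0.50, 12.3% rose and 39.2% fell. Of the 113 segments under 5, 41 rose (36.3%) and 1 fell, with a median of 0.47. Of the 17 segments at 5 and over, 14 rose, none fell, and the median was 0.97, and all 17 were higher with MEC1 on both days. Immunoglobulin V and J segments of the same intensity range, which are built on the same plan in B cells, had 10 rises and no fall among 24, with a median of 0.88. Protein-coding clusters at 5 and over had a median of -0.75, and clusters without a single symbol -0.35. That split uses the mean over all 12 arrays, so MEC1 arrays helped to choose the brighter segments. By the mean of the 6 control arrays alone, a split added after seeing the data, 14 segments were at 5 and over (Traj29, Trav3n-2 and Trav4-3 dropped out). Of these 12 rose and none fell, with a median of 1.02, while of all clusters so chosen 9.48% rose and 40.6% fell, with a median of -0.54. Of 16 immunoglobulin segments so chosen 4 rose and none fell, with a median of 0.35. With quantile normalization 15 of the 17 segments at 5 and over by all 12 arrays rose and none fell. Of the 19671 clusters at 5 and over, 3149 then rose and 3482 fell, with a median of -0.15. With centring 7 of the 17 segments rose and none fell. Of the 19671 clusters, 1258 then rose and 10401 fell, with a median of -0.93. With the hybridisation controls as a covariate 12 of the 17 changes were positive and none passed, while the median of all clusters at 5 and over turned to 0.22. Of the 24 immunoglobulin segments at 5 and over, 10 rose with quantile normalization, 6 with centring and 0 with the covariate, and none fell. Their medians were 1.16, 0.45 and -0.50 under these 3 settings.

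**Figure D3:**
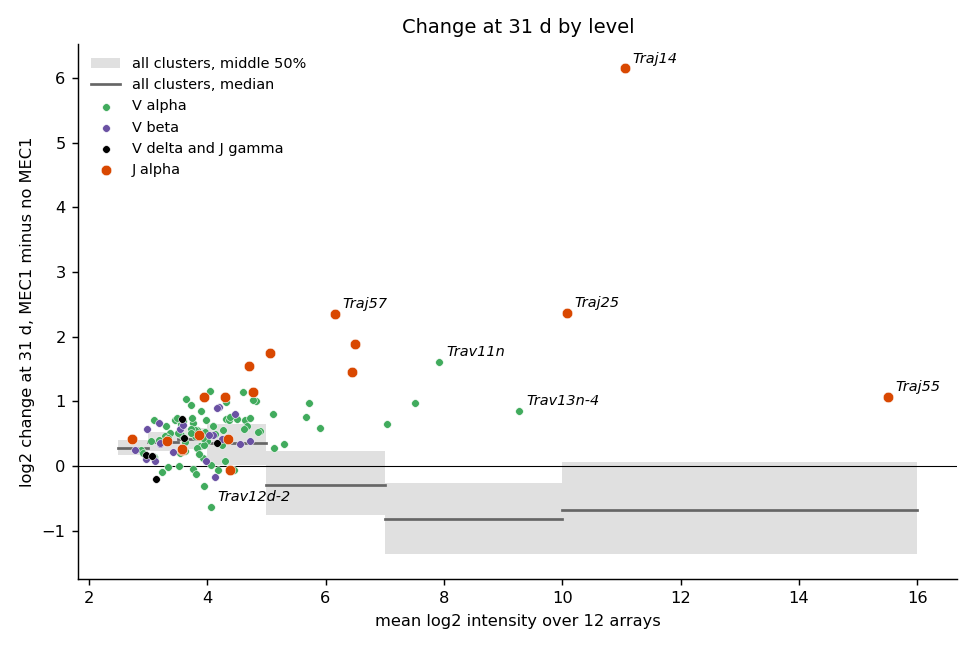
Log2 change at 31 days, MEC1 minus control (vertical axis), against the mean log2 intensity over the 12 arrays (horizontal axis), 1 point per segment, coloured by class. Grey boxes span the middle 50% of all clusters in each intensity range, with a line at their median. The 17 segments at 5 and over all lie above 0, and the median of all clusters there is -0.50.

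The scaling between arrays changed how many segments passed. With quantile normalization 23 rose and 5 fell at 31 days, beside 7.9% and 8.35% of all clusters, and with each array centred on its median 13 rose and 10 fell, beside 4.82% and 21.3%. These scalings shifted the median change of all clusters from 0.30 to about 0 (-0.00) and to -0.13, and that of the segments to 0.13 and 0.08. J alpha segments kept 9 rises under quantile normalization and 8 under centring, with no fall and medians of 0.85 and 0.64. V alpha segments had 14 rises and 4 falls under the former and 5 rises and 6 falls under the latter. The V beta median was 0.03 under quantile normalization and turned to -0.05 under centring, and the V delta median was -0.12 and -0.26. Of the 55 rises, 13 passed upward under both scalings: the 8 J alpha segments Traj14, Traj25, Traj57, Traj46, Traj29, Traj2, Traj54 and Traj38, and the V alpha segments Trav11n, Trav7d-4, Trav13n-1, Trav13d-1 and Trav4d-3, the last 2 named after their values were seen. With the hybridisation controls as a covariate none of the 130 passed. That covariate did not overlap between the groups, so it and the MEC1 effect cannot be told apart. Under it 28 of the 55 rises kept a positive change and 27 turned negative, while the J alpha median was 1.14.

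**Figure D4:**
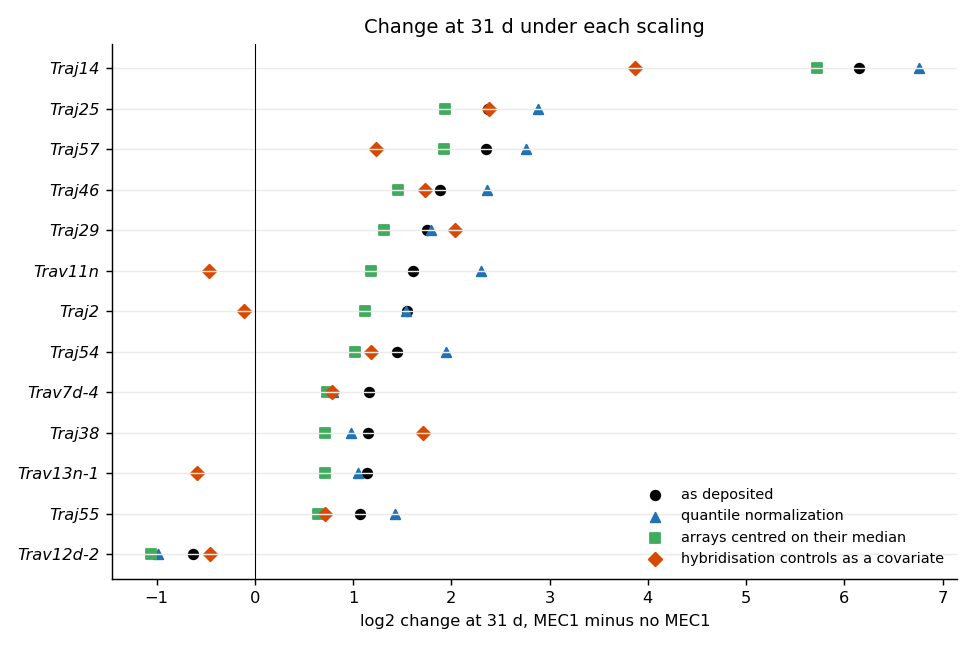
Log2 change at 31 days, MEC1 minus control (horizontal axis), of the 12 largest rises and the 1 fall (vertical axis) under 4 settings: values as deposited, quantile normalization, arrays centred on their median, and the hybridisation controls as a covariate. Trav11n, Traj2 and Trav13n-1 turn negative under the covariate (-0.46, -0.11 and -0.59), and Traj14 stays between 3.87 and 6.76.

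Early in the disease no segment passed. At 21 days 0 of 130 segments rose or fell, beside 0.869% and 1.04% of all clusters, 1.91% together (limma). The count was 0 as well under quantile normalization (0.573% of all clusters rose and 0.505% fell) and under centring (0.488% and 1.47%). An unadjusted p under 0.05 was met by 25 segments, all higher with MEC1, or 19.2%, beside 20.3% of all clusters. The median change was 0.22 (0.13 for all clusters), and 114 of 130 changes were positive, beside 44785 of 65956 clusters. Under a mean intensity of 5, 97 of 113 segments and 38292 of 46285 clusters had a positive change. In 30 segments all 3 MEC1 mice lay above all 3 controls, beside 21% of all clusters. In none did all 3 lie below, beside 7.93%. After Traj14, the smallest p belonged to Trav3n-3 and Trbv20. Trav3n-3 read 3.73, 3.63 and 3.86 in controls and 4.68, 4.34 and 4.11 with MEC1, a difference of 0.64 (adjusted p = 0.0778). Trbv20 read 2.77, 2.45 and 2.51 in controls and 2.90, 3.51 and 3.35 with MEC1, a difference of 0.68 (adjusted p = 0.112). Neither pair of groups overlapped, and both clusters were near background. Without MEC1 replicate 3 of 21 days 9 segments passed, all higher. The share of all clusters that passed in that fit is not given here, so the 9 show nothing particular to the segments.

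Single mice were high or low in many segments at once. MEC1 replicate 3 of 21 days was the lowest of its group in 12 of 18 J alpha, 60 of 85 V alpha and 13 of 21 V beta segments, and in 48.9% of all clusters. MEC1 replicate 1 of that day was highest in 14 of 18 J alpha and 55 of 85 V alpha segments, against 47.6% of all clusters. Among controls at 31 days, replicate 2 was lowest in 12 of 18 J alpha segments, beside 31% of all clusters, but highest in 35 of 85 V alpha segments, beside 36%. With MEC1 at 31 days, replicate 3 was highest in 62 of 85 V alpha and 13 of 21 V beta segments, beside 51.1% of all clusters, and its array had the highest median and hybridisation controls.

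The average over both days gave 70 rises and 1 fall among the 130 segments, beside 36.7% and 13.9% of all clusters, 50.7% in either direction. The difference between the days was then tested itself. For 0 of 130 segments did the change at 31 days differ from that at 21 days (limma, 0.00152% of all clusters higher, 0% lower), and 14 segments, 13 of them with the larger value at 31 days, had an unadjusted p under 0.05 (10.8%, beside 12.1% of all clusters). The smallest p belonged to Traj38, with a difference of 0.82 (SE 0.212, adjusted p = 0.341), Traj14 with 3.40 (SE 0.965, adjusted p = 0.351) and Trav7d-4 with 1.01 (SE 0.32, adjusted p = 0.351). All 18 J alpha differences were positive, from 0.11 to 3.40, beside 43822 of 65956 clusters with a positive difference. The calls at 31 days and their lack at 21 days therefore do not show that the segments changed more at 31 days.

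Between the days no segment passed in controls. In mice without MEC1, 0 of 130 segments passed for 31 against 21 days (limma, 0% of all clusters higher, 0.00455% lower), and 5 had an unadjusted p under 0.05, all lower at 31 days. The smallest p belonged to Traj38 with -0.38 (adjusted p = 0.939), Trav7d-4 with -0.54 (adjusted p = 0.984) and Trav7d-2 with -0.44 (adjusted p = 0.967). Traj14 was lower at 31 days by a change of -1.49 (SE 0.683, adjusted p = 0.999).

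The other parts of the receptor and of its assembly were followed in fixed lists. The list of constant and D segment genes held 17 symbols, with alternative names for the gamma constant genes and with Ptcra, which is neither. Of these symbols 2 had a cluster of their own and 4 shared one with other symbols. The other 11, among them Trac, Trbc1 and Trbc2 of the alpha and beta constant regions, had no cluster under that symbol. Ptcra, the partner of the beta chain in early thymocytes, was at 3.66, 3.66 and 3.51 in controls at 31 days and at 3.98, 4.06 and 4.35 with MEC1, a rise of 0.52 (adjusted p = 0.0107). Tcrg-C3, a gamma constant gene, changed by -0.16 (adjusted p = 0.478). The shared clusters of Tcrg-C2 and Tcrg-C4 rose by 0.68 and 0.42, and those of Tcrg-C1 and Trdc changed by 0.19 and -0.02 without passing. Among 16 genes of the CD3 complex and receptor signalling 7 rose (43.8%) and 4 fell (25%), beside 33% and 12.6% of all clusters. Of clusters under 5, 41.7% rose. The 4 that fell had a mean intensity over 5, where 39.2% of all clusters fell. Fyn, a kinase also active in other blood cells, and the adaptor Skap1 rose by 0.83 and 0.68, while Vav1 and Lcp2, signalling proteins shared with myeloid cells, fell, with changes of -1.54 and -1.30. Ubash3a and Grap2 also fell, with changes of -0.90 and -0.64. Cd3d and Cd3e changed by 0.10 and 0.18 without passing, and Cd3g rose by 0.48. The count of rises moved with the scaling. Under centring the list had 0 rises and 4 falls with a median of -0.15. Under quantile normalization it had 2 rises, of Fyn by 1.51 (limma, adjusted p = 0.00476) and Plcg1 by 0.31 (adjusted p = 0.0425). The 1 fall under quantile normalization was that of Ubash3a, with a change of -0.84 (adjusted p = 0.0206). Ptcra changed by 0.09 under both without passing, and Tcrg-C4 by -0.01 under centring.

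Genes of V(D)J recombination were counted next. Of 9 tested at 31 days 0 rose and 5 fell (limma, median -0.59), 1 gene was higher, and none had an unadjusted p under 0.05 in that direction. The 55.6% that fell stand beside 12.6% of all clusters and 59.98% of protein-coding clusters at 5 and over, of which 3.05% rose. Not all 9 lay in that range: Dntt and Lig4, which fell, and Rag2 and Xrcc4, which did not pass, averaged under 5. Of all clusters under 5, 1.33% fell. Under quantile normalization 5 fell and under centring 6, while under the covariate none passed and Hmgb2 was at 1.69. Prkdc, the DNA-dependent protein kinase of end joining, fell by 1.99 on the log2 scale. The chromatin protein Hmgb2 had a change of -1.47, the end-binding subunit Xrcc6 of -1.06 and Dntt, which adds bases to the joints, of -0.98. Rag2, inactivated in all 12 mice, was at 4.03 ± 0.22 in controls and 3.91 ± 0.22 with MEC1 at 31 days (SD, n = 3), a change of -0.12 that did not pass. Rag1 shared its cluster with another symbol and changed by 0.18 (adjusted p = 0.187).

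Markers of cells that could be present were measured beside the segments. Of 16 T cell and thymocyte markers, 3 were above the array median on all 12 arrays, 7 rose and 3 fell at 31 days. These 43.8% that rose stand beside 41.7% of all clusters under 5, and the count shows nothing particular to T cell markers. Their mean per array lay between 4.05 and 4.14 in controls and between 4.08 and 4.30 with MEC1. Lef1 and Bcl11b rose by 0.95 and 0.53, and Cd7 and Il7r fell, with changes of -1.79 and -0.92. Of 14 natural killer and innate lymphoid markers 9 rose (64.3%) and 1 fell, beside 33% and 12.6% of all clusters and, for rises, 41.7% of those under 5. The rises were led by Eomes and Tbx21 with 1.20 and 1.17. Gzma and Il2rb each rose by 0.89, and Nkg7 fell by 2.82. The list's mean per array was 5.10 to 5.13 in controls and 5.40 with MEC1. Of 13 B cell markers 7 rose (53.8%) and 1 fell. Of all clusters 33% rose and 12.6% fell, and 41.7% of those under 5 rose. Pax5 and Ebf1 rose by 2.23 and 1.57, Ms4a1 by 0.85, and Ighm fell by 4.54. The mean of the B cell list per array was 4.75 to 4.80 in controls and 4.86 to 5.12 with MEC1. Under centring 1 T cell marker, Lef1, still rose and 4 fell, 3 natural killer and innate lymphoid markers rose and 1 fell, and 3 B cell markers rose and 4 fell. The part of these cell types in the segments' rises was not tested.

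Most markers of the purified cells were lower with MEC1 at 31 days. All 10 monocyte and macrophage markers with a cluster of their own were above the array median on all 12 arrays, and 8 of them fell at 31 days, beside 59.98% of protein-coding clusters at 5 and over. Among them were Cd68, Cx3cr1, Lyz2 and Ly6c2, with changes of -2.49, -2.27, -1.72 and -1.61. Fcgr1, which did not pass, read 5.05 in MEC1 replicate 3 of 31 days, under the brightest background feature of that array at 5.14. All 6 erythroid markers fell, beside 12.6% of all clusters and 59.98% of protein-coding clusters at 5 and over. Rhag, Slc4a1, Ermap and Alas2 had changes of -8.84, -8.53, -7.81 and -4.74. Of 9 neutrophil markers 5 fell (55.6%), a share close to that of protein-coding clusters at 5 and over, among them Csf3r, Ltf, Ly6g and Elane, with changes of -3.03, -2.96, -2.53 and -2.15. Of 6 plasmacytoid dendritic cell markers 2 fell (33.3%), beside 12.6% of all clusters and 39.2% of those at 5 and over. They were Irf8 and Siglech, with changes of -2.62 and -2.45. Under the covariate none of these passed, and the medians of the monocyte and neutrophil lists turned to 1.09 and 2.92. The part of these shifts in the segments' rises was not tested.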

How the data were processed

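The data were 12 whole-transcriptome arrays, each read with marrow monocyte and macrophage RNA of 1 mouse. The deposited values were log2 intensities per transcript cluster, made by the authors with Affymetrix Expression Console and RMA, per the submitters' processing notes (versions not given in the sources used here). Of 72688 features 6732 control features were left out. By the platform annotation 30604 clusters had 1 symbol, 2146 several and 33206 none. Each segment had 1 cluster. RefSeq names came from the GRCm38.p6 gene table, and the build behind the array's clusters is not given in the sources used here.

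All 65956 clusters were fitted with limma 3.58.1 in R 4.3.3, using 4 group means, empirical Bayes moderation, two-sided p-values, Benjamini-Hochberg adjustment over all clusters and a threshold of 0.05. No filter on dim clusters was used. The groups have 3 mice each, all 4 share one estimate of the spread, and p-values measure the spread between these mice. "Rose" and "fell" mean an adjusted p under 0.05. The fit was tested on simulated data.

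The segments and the gene lists were chosen with earlier results of these data known. Named segments were those that passed without overlap of the groups, up to 12 rises and 6 falls at 31 days and 6 of each at 21 days, and up to 3 of each direction for the other tests. Where none passed, the 3 of smallest p were named, with the 3 of highest mean intensity in each class, every constant or D segment gene with a cluster, and the 4 largest changes that passed in each list. Some further list genes, such as Skap1, Grap2 and Il2rb, were named after their values were seen. The alternatives were 2 filters, quantile normalization, centring, the hybridisation controls as a covariate, the 6 arrays of 1 comparison without the others, a trended and robust variance prior, a 2-fold minimum, the mouse number as a block, and leaving out each array in turn. Lists of immunoglobulin segments and of marker genes were described by counts and medians.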

Additional observations from a re-analysis of the deposited data

How the results depend on the processing

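Where the count of segments that passed at 31 days (56 as deposited) moved by over 1.5 times, it was 31 with clusters whose mean exceeded the median of all clusters, 28 with quantile normalization, 23 with centring, 0 with the hybridisation controls as a covariate and 17 with a 2-fold minimum. For the average (71) it was 47 with clusters above the array median in at least 3 arrays, 40 with the filter on the mean, 29 with quantile normalization, 26 with centring, 0 with the covariate and 6 with the 2-fold minimum. At 21 days (0) it was 1, Traj14, with either filter, which is a test of fewer clusters. The filter on 3 arrays kept 3 segments through MEC1 arrays only, so filtered counts are no support for the rises. For the other moves the cause was not tested. Leaving out 1 array gave 33 to 65 at 31 days, 52 to 75 for the average, 0 to 9 at 21 days, and 0 for the difference and for the controls. Under the covariate Trav11n, Traj2, Trav13n-1, Trav11d and Trbv14 turned from rises to -0.46, -0.11, -0.59, -1.87 and -0.71. Each segment had 1 cluster, so a mean over clusters was not run.

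The mouse numbers mark different animals, and most samples with the same number did not deviate together (correlations from -0.34 to 0.37, over 0.1 in 4 of 18 pairs). The highest, 0.37 and 0.32, were between control and MEC1 mice of 21 days with numbers 3 and 1. For number 2 of that day the correlation was -0.15. With the replicate number as a block, 48 segments passed at 31 days (47 higher, 1 lower), 64 for the average, and 0 at 21 days, for the difference and for the controls. The share of all clusters that passed is not given here for the block or the fits without 1 array. Nor is it given for the filters at 31 days or the refits of the average. These counts show how the calls moved, not whether the segments moved apart from other clusters. Limits are the small groups, the dim signal of 83 segments never above the brightest background feature, near-identical copies, and a covariate that does not overlap between groups.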

Other observations

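The immunoglobulin V and J segments, the B cell counterpart of the T cell receptor segments, had 200 clusters with 1 symbol: 113 heavy chain V, 86 kappa V and 1 kappa J. With MEC1 at 31 days 63 of them rose (31.5%, beside 33% of all clusters) and none fell, with a median change of 0.46 (limma). The heavy chain V segments had 34 rises of 113 and the kappa V segments 29 of 86. A rise of at least 2-fold was met by 19 of the 200, the largest change being 2.00. Under quantile normalization 18 rose and 4 fell, and under centring 15 rose and 7 fell. At 21 days 3 kappa V segments rose and none fell.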
